A study of Rattus with 12 samples.

Results

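Kruppel-like factors (KLFs) are transcription factors that bind GC-rich and CACCC-type DNA through zinc fingers at the end of the protein. Family members differ in the rest of the protein, so that some recruit activators and others recruit the corepressors CtBP or Sin3A. Several of them (Klf2, Klf4, Klf6, Klf10) are known to be switched on quickly by growth factors, shear stress or injury, while Klf9 and Klf15 are known as glucocorticoid-responsive genes and Klf15 as a regulator of amino acid and glucose metabolism. Here 10 members were followed, taken by name from the authors' deposited table of genes: Klf2, Klf3, Klf4, Klf5, Klf6, Klf9, Klf10, Klf11, Klf13 and Klf15, which are 10 of its 42915 rows. Each had a row of its own, joined with no other gene name, and all 10 were tested by the authors.

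The RNA came from medullary thick ascending limbs, the nephron segment that reabsorbs salt without water, picked by hand under a microscope from the digested inner stripe of the outer medulla of male rats. Salt-sensitive Dahl rats (SS/JrHsdMcwi, here SS) gave 6 libraries, and a consomic line, SS-Chr 1BN/Mcwi (here SS.BN1), which is an SS rat with chromosome 1 of the Brown Norway rat, gave the other 6, with 1 animal per library. All rats were 7 weeks old, ate a diet with 0.4% NaCl and had no other treatment. The comparison asks how exchanging chromosome 1 alters the RNA of this tubule, and the study concerns how high blood pressure and renal disease develop with age.

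Libraries held 42.3 to 59.8 M reads, of which 84.4 to 86.4% mapped. Mean reads were 52.8 ± 3.69 M (SD, n = 6) in SS and 52.0 ± 5.68 M (SD, n = 6) in SS.BN1 (two-sided exact permutation test, p = 0.784). The mapped share averaged 85.9% ± 0.339 (SD, n = 6) in SS and 85.3% ± 0.522 (SD, n = 6) in SS.BN1 (two-sided exact permutation test, p = 0.0649). Levels are FPKM (fragments per kilobase of transcript and per M mapped fragments), a scale per length on which genes can be compared. The authors' deposited table gives 1 FPKM value per strain, so no value below carries an error between animals, and overlap between animals was not analysed here. Markers of the labelled segment were abundant: Umod, which encodes uromodulin, stood at 10174 FPKM in SS rats and 8492 in SS.BN1 rats, from the authors' deposited table. Of 8 such markers, 8 were tested and none was called different (none with an unadjusted p under 0.05), beside 3.42% of all tested genes called.

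Klf6, Klf4 and Klf10 were higher in SS than in SS.BN1, by 3.27-fold, 2.98-fold and 2.18-fold, computed from the authors' deposited table. These 3 members were called at the authors' q (p adjusted over all 13253 tested genes) under 0.05, each higher in SS, and no member was called in the opposite direction. Across all tested genes 3.42% were called, 3.32% higher in SS and 0.0981% lower in SS. The other 7 members passed no test. Of those 7, 6 had the higher value in SS, with folds from 1.12 to 1.61, and Klf15 had the higher value in SS.BN1. The median log2 ratio of SS over SS.BN1 was 0.63 for the 10 members and 0.00 for all tested genes, of which 50.3% had the higher value in SS.

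**Figure D1:**
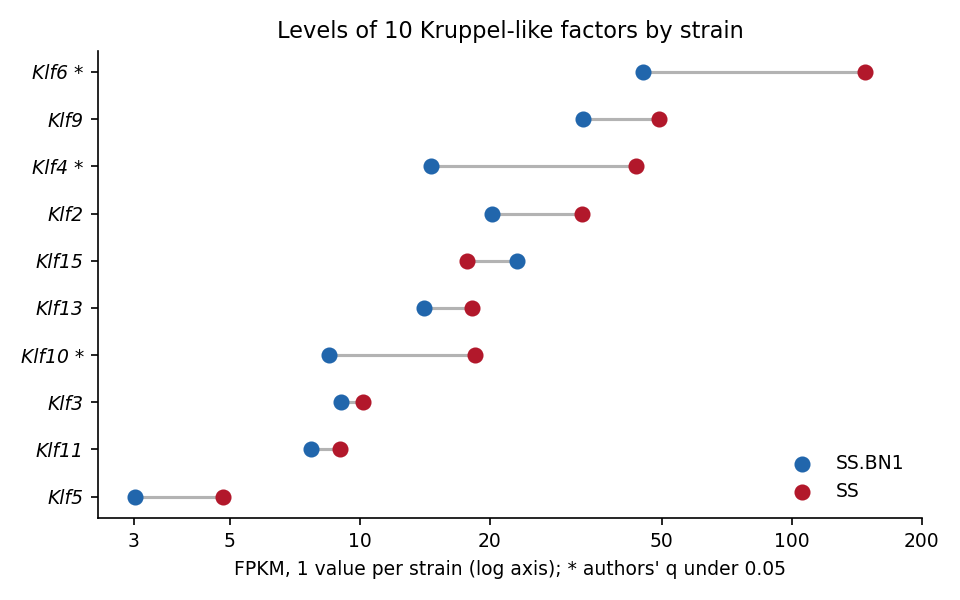
FPKM of each Kruppel-like factor (log axis) in SS (red) and SS.BN1 (blue), 1 value per strain with no error, ordered by mean level; an asterisk marks the authors' q under 0.05. Klf6 has the highest value in both strains, 148 against 45.3 FPKM, and Klf15 is the 1 gene whose SS.BN1 value lies to the right.

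Among the quickly induced activators, Klf6 was the most abundant member in both strains. Klf6 is known to be induced early after tissue injury. It stood at 148 FPKM in SS rats and 45.3 in SS.BN1 rats (log2 ratio 1.71, p = 5e-05, q = 0.00266), from the authors' deposited table. Its mean level exceeded that of 95.2% of tested genes, and its log2 ratio exceeded that of 98.3% of them. The row spans 57.1 kb on chromosome 17 (67887939 to 67945037). Coordinates are given as deposited, with starts made 1-based, and their genome build is not settled.

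Klf4, known for roles in epithelial differentiation, podocytes and vessel walls, stood at 43.6 FPKM in SS rats and 14.6 in SS.BN1 rats (log2 ratio 1.58, q = 0.00266), from the authors' deposited table. It lies on chromosome 5 (72283313 to 72288055). In order of level it stood in place 3 of the 10 members in SS and in place 5 in SS.BN1. With 1 value per strain it cannot be said which neighbours in that order differ beyond the spread between animals.

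Klf2, the shear-responsive factor of endothelium, stood at 32.7 FPKM in SS rats and 20.3 in SS.BN1 rats (log2 ratio 0.69, p = 0.0507, q = 0.667), from the authors' deposited table. Klf5, an activator of epithelial growth, had the lowest level of the 10 members in both strains, 4.82 FPKM in SS rats and 3.02 in SS.BN1 rats (log2 ratio 0.67, p = 0.0434, q = 0.597), from the authors' deposited table. Neither passed the test, although the ratios of Klf2 and Klf5 exceeded those of 92.8% and 92.6% of tested genes. An unnamed row overlaps the coordinates of Klf5 (1.79 FPKM in SS rats and 1.36 in SS.BN1 rats from the authors' deposited table, not tested), so the split of reads between them is uncertain.

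Of the members that recruit Sin3A, Klf10, first described as a gene induced early by TGF-beta, was the 1 called. Klf10 stood at 18.5 FPKM in SS rats and 8.50 in SS.BN1 rats (log2 ratio 1.12, q = 0.00266), from the authors' deposited table. It lies on chromosome 7 (77156006 to 77162148) and held place 8 in the order of levels in SS.BN1 and place 5 in SS. Klf11, its closest relative in the family and also TGF-beta-inducible, had 9.02 FPKM in SS rats and 7.70 in SS.BN1 rats (log2 ratio 0.23, p = 0.354, q = 1.00), from the authors' deposited table. The difference between the ratios of these relatives was not tested.

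Klf9 came nearest to the threshold among members not called. It is a glucocorticoid- and thyroid hormone-responsive repressor, and stood at 49.2 FPKM in SS rats and 32.8 in SS.BN1 rats (log2 ratio 0.58, p = 0.00385, q = 0.0948), from the authors' deposited table. Klf9 was the second most abundant member in both strains. Klf13, another Sin3A-binding member, had 18.2 FPKM in SS rats and 14.1 in SS.BN1 rats (log2 ratio 0.37, p = 0.0560, q = 0.708), from the authors' deposited table.

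Klf15, named for its abundance in kidney when it was first cloned, went the other way without passing the test. It stood at 17.7 FPKM in SS rats and 23.1 in SS.BN1 rats (log2 ratio -0.39, p = 0.155, q = 1.00), from the authors' deposited table. Its ratio was higher than that of only 4.79% of tested genes, and in the order of members it held place 3 in SS.BN1 and place 7 in SS. Klf3, a repressor that works through CtBP, had 10.2 FPKM in SS rats and 9.06 in SS.BN1 rats (log2 ratio 0.17, p = 0.447, q = 1.00), from the authors' deposited table.

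The fold at which genes were called sets the scale for these values. No gene with a fold under 1.58 was called. Among tested genes with a mean level of 3 to 100 FPKM, a range that holds all 10 members, 1 of 328 genes with a fold of 1.4 to 1.6 was called, in either direction. At 1.6 to 1.8 it was 40 of 165, at 1.8 to 2 it was 54 of 114, at 2 to 2.5 it was 85 of 140, and at 2.5 to 4 it was 104 of 135. Klf9 (1.5-fold) and Klf5 (just under 1.6-fold) lay in the first of these ranges and Klf2 (1.61-fold) at the lower end of the second, and a missed threshold there does not show that the strains were alike.

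**Figure D2:**
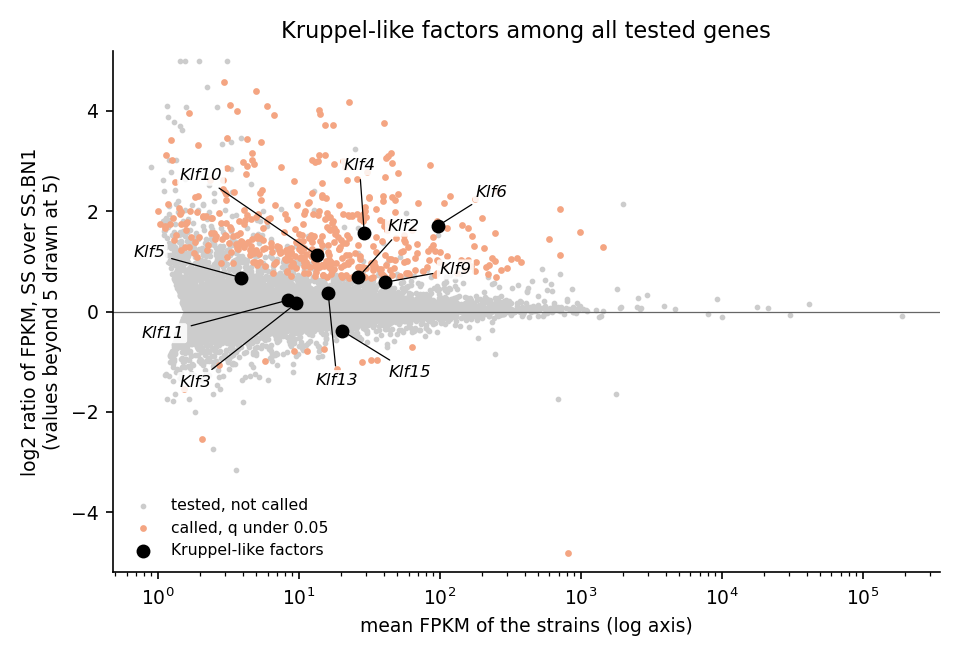
Log2 ratio of FPKM, SS over SS.BN1, against mean FPKM (log axis) for tested genes (grey, not called; orange, authors' q under 0.05) with the 10 Kruppel-like factors in black; 3 tested genes listed at 0 in 1 strain are left out. Klf6, Klf4 and Klf10 lie among the called genes, at 1.71, 1.58 and 1.12, and Klf15 lies below 0 at -0.39.

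Added up, the 10 members reached 352 FPKM in SS rats and 178 in SS.BN1 rats, a ratio of 1.97, from the authors' deposited table. Klf6 alone made up 42.1% of that sum in SS and 25.4% in SS.BN1, and without it the ratio was 1.53. The 3 called members together made up 59.7% in SS and 38.4% in SS.BN1. The share of Klf15 was 5.02% in SS and 12.9% in SS.BN1, and that of Klf9 was 13.97% in SS and 18.4% in SS.BN1.

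By position, 2 members lie on chromosome 1, the chromosome that differs by design, and neither was called: Klf9 (240908483 to 240933198) and Klf13 (124767179 to 124816301). The 3 called members are among the 8 on other chromosomes, which both strains take from SS. Of 60 tested genes within 500 kb of a member, 1 was called, against 3.42% of all tested genes. It was Azin1, an inhibitor of the protein antizyme, near Klf10, with 77.7 FPKM in SS rats and 38.6 in SS.BN1 rats (2.01-fold, q = 0.00502), from the authors' deposited table. No other tested gene lay within 500 kb of Klf6, and of 2 near Klf4 neither was called.

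Values for single isoforms split the FPKM of each member by transcript. The authors' deposited table of isoforms lists 30 isoforms of the members, 13 annotated and 17 assembled from the reads, of which 18 were tested and 4 were called, all higher in SS. Across all tested isoforms 1.05% were called. Summed isoform FPKM equalled the FPKM of each member to within 0.000251%, so isoform calls are no separate evidence. The authors' q for isoforms is adjusted over 23688 tested isoforms.

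Klf6 had 2 called isoforms. Its annotated main isoform stood at 113 FPKM in SS rats and 35.7 in SS.BN1 rats and an assembled isoform at 34.6 against 9.43 (both q = 0.00718), from the authors' deposited table. The main isoform thus rose 3.17-fold and the assembled one 3.67-fold, and their shares of the gene's FPKM were 76.3% and 23.4% in SS against 78.7% and 20.8% in SS.BN1. Another isoform stayed under 1 FPKM in both strains and was not tested.

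For Klf4 the annotated isoform was called, at 31.0 FPKM in SS rats and 9.57 in SS.BN1 rats (3.24-fold, q = 0.00718), from the authors' deposited table. Assembled isoforms of Klf4 had 6.84 against 2.95 FPKM (q = 0.927) and 5.70 against 2.10 FPKM (q = 0.999) and did not pass, from the authors' deposited table. Klf10 was carried almost wholly by 1 annotated isoform, with 17.2 FPKM in SS rats and 7.997 in SS.BN1 rats (2.15-fold, q = 0.00718), from the authors' deposited table. That isoform made up 93.0% of the gene's FPKM in SS and 94.1% in SS.BN1.

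The isoforms of Klf2 were unequal without passing the test. An assembled isoform had 19.8 FPKM in SS rats and 11.2 in SS.BN1 rats (1.76-fold, p = 0.00885, q = 0.409), from the authors' deposited table. The annotated one had 12.9 against 9.02 FPKM (1.43-fold, p = 0.512, q = 0.999), from the authors' deposited table. Klf9 is listed with 1 isoform, so its FPKM and p are those of the gene, and its q in the authors' deposited table of isoforms was 0.224.

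Klf15 had 6 isoforms, the most of the 10 members, and the 3 tested ones all had the lower value in SS. The annotated isoform had 7.53 FPKM in SS rats and 8.62 in SS.BN1 rats (p = 0.787, q = 0.999), from the authors' deposited table. Assembled isoforms had 5.46 against 8.24 FPKM (p = 0.359) and 3.12 against 5.29 FPKM (p = 0.0342), both q = 0.999, from the authors' deposited table. Of the 20 isoforms of members with a mean of at least 1 FPKM, none shifted its share of the gene by more than 6.10 percentage points between strains. That largest shift was an assembled isoform of Klf3 (33.8% in SS and 27.7% in SS.BN1); shares were not tested.

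**Figure D3:**
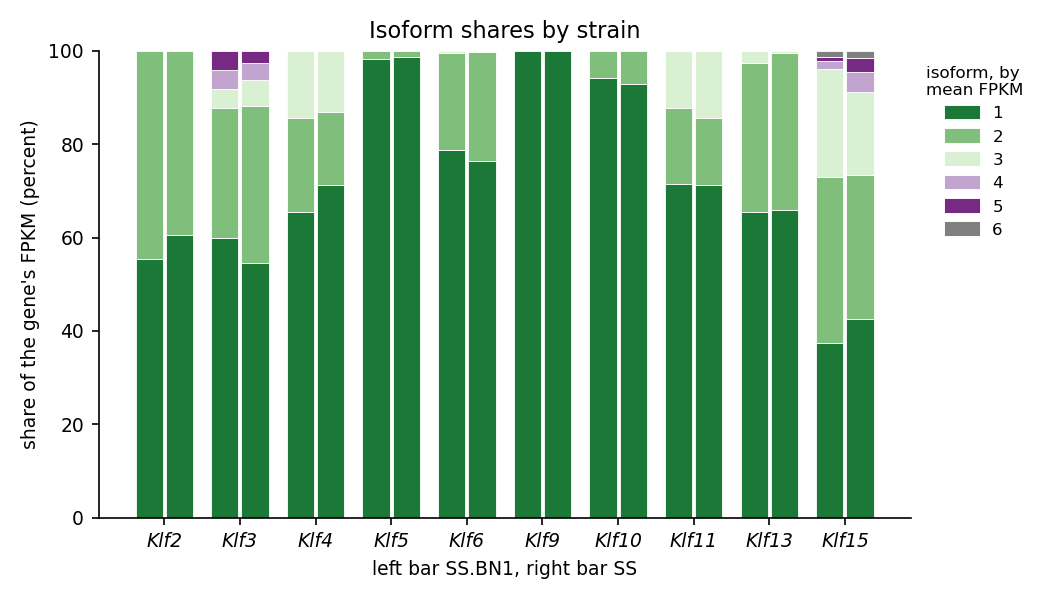
Share of each gene's FPKM (percent) taken by its isoforms, numbered by mean FPKM, in SS.BN1 (left bar) and SS (right bar), 1 value per strain. The main isoform of Klf6 takes 78.7% and 76.3%, that of Klf10 takes 94.1% and 93.0%, and the Klf15 locus is divided among 6 isoforms.

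The rest of the family, which reads the same kind of DNA site, showed no call among 7 tested genes (none with an unadjusted p under 0.05), beside 3.42% of all tested genes. Their median log2 ratio was 0.09. Klf7 is in a row joined with an unnamed locus and had 4.86 FPKM in SS rats and 3.42 in SS.BN1 rats (log2 ratio 0.51, q = 1.00), from the authors' deposited table. Klf12, a CtBP-binding repressor, had 3.94 against 4.10 FPKM and Klf16 had 5.94 against 5.76, from the authors' deposited table. The Sp proteins are the relatives that act at the promoters of many housekeeping genes. Sp3, the most abundant of them, had 22.1 FPKM in SS rats and 20.8 in SS.BN1 rats from the authors' deposited table. Sp1 had 16.3 against 13.7 FPKM, Sp2 11.6 against 9.41 and Sp4 6.07 against 5.74, from the authors' deposited table. The other 9 matched genes of the family were not tested and reached at most 1.42 FPKM; 5 of them are listed at 0 in both strains (Klf14, Klf17, Sp7, Sp8 and Sp9).

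Genes that act before, with or after KLFs were taken from 10 lists that hold 93 distinct tested genes, of which 15 were called, all higher in SS, beside 3.42% of all tested genes called and 3.32% called higher in SS. The lists were chosen with earlier results of these data known. Of 9 tested genes of the pathway from the kinase ERK5 to MEF2, which switches on Klf2 and Klf4, 1 was called. Mapk7, the gene of ERK5 itself, was not tested, at 0.0321 FPKM in SS rats and 0.0464 in SS.BN1 rats. The called gene was not ERK5 but a kinase above it. It was Map3k2, at the top of the pathway, with 19.6 FPKM in SS rats and 10.4 in SS.BN1 rats (1.89-fold, q = 0.00266), from the authors' deposited table. The list's median log2 ratio was 0.04. Of 6 tested genes of serum response factor, its partners and CREB, 1 was called, Srf itself, with 19.0 FPKM in SS rats and 10.02 in SS.BN1 rats (1.90-fold, q = 0.00266), from the authors' deposited table. That list had a median log2 ratio of -0.01.

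The TGF-beta pathway, which induces Klf10 and Klf11, had 1 call among 11 tested genes and a median log2 ratio of 0.08. Tgif1, a corepressor that dampens the pathway, had 35.9 FPKM in SS rats and 9.53 in SS.BN1 rats (3.76-fold, q = 0.00266), from the authors' deposited table. No tested ligand, receptor or Smad on the list was called.

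Glucocorticoid-responsive genes, the class to which Klf9 and Klf15 belong, were listed with the receptor gene Nr3c2 and the enzyme genes Hsd11b1 and Hsd11b2. This list had 4 calls among 13 tested, all higher in SS, with a median log2 ratio of 0.45. Errfi1, an inhibitor of the EGF receptor, had 197 FPKM in SS rats and 39.6 in SS.BN1 rats (4.96-fold, q = 0.00266), from the authors' deposited table. Cebpd, a stress-induced transcription factor, had 31.4 FPKM in SS rats and 7.24 in SS.BN1 rats (4.34-fold, q = 0.00266), from the authors' deposited table. Nfkbia, an inhibitor of NF-kB, had 133 against 47.4 FPKM, and the phosphatase Dusp1 had 192 against 109 FPKM (q = 0.00266 and 0.00502), from the authors' deposited table. Of the other 9 tested genes of this list, none of which was called, 5 were at a higher value in SS and 4 at a lower one. Their log2 ratios ran from -0.40 for Hsd11b2 to 0.53 for Hsd11b1, enzymes that inactivate and regenerate glucocorticoid, and 2 had an unadjusted p under 0.05 (Ddit4 at 0.0167 and Hsd11b2 at 0.0498), from the authors' deposited table. These names were picked after their values were seen.

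Clock genes, which share daily control with Klf9, Klf10 and Klf15, had 2 calls among 14 tested and a median log2 ratio of 0.07. In all, 8 were at a higher value in SS and 6 at a lower one. By the authors' test 3 had an unadjusted p under 0.05. Arntl, which encodes the clock activator BMAL1 and lies on chromosome 1, had 5.23 FPKM in SS rats and 2.2 in SS.BN1 rats (2.37-fold, q = 0.0108), from the authors' deposited table. Bhlhe40, a clock repressor that stress also induces, had 120 FPKM in SS rats and 70.7 in SS.BN1 rats (1.69-fold, q = 0.0290), from the authors' deposited table. The sources used here do not give the hour at which each rat was killed, so its part in the clock and Klf values was not tested.

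Partners of the KLF proteins showed no call, but 3.42% of all tested genes were called, so lists this small may hold none. Of 11 tested co-regulators, among them CtBP, Sin3 and histone deacetylase genes, none was called (none with an unadjusted p under 0.05), with a median log2 ratio of -0.10. Ctbp1, the most abundant by mean level, had 38.4 FPKM in SS rats and 41.5 in SS.BN1 rats from the authors' deposited table. Of 6 ubiquitin ligases that mark KLF proteins for destruction, none was called (none with an unadjusted p under 0.05), and the most abundant, Wwp1, had 25.3 FPKM in SS rats and 22.3 in SS.BN1 rats from the authors' deposited table.

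Known targets of the quickly induced KLFs were mixed. Of 9 tested targets of KLF4, KLF5 or KLF6, 2 were called, both higher in SS, with a median log2 ratio of 0.46. In all, 7 were at a higher value in SS and 2 at a lower one. By the authors' test 5 had an unadjusted p under 0.05, of which only Eng was lower in SS. Eng had 22.2 FPKM in SS rats and 31.6 in SS.BN1 rats (p = 0.0216, q = 0.360), from the authors' deposited table. Cdkn1a, a cell cycle inhibitor that KLF4 and KLF6 activate, had 27.5 FPKM in SS rats and 3.18 in SS.BN1 rats (8.66-fold, q = 0.00266), from the authors' deposited table. The keratin gene Krt18 had 15.1 FPKM in SS rats and 7.89 in SS.BN1 rats (1.91-fold, q = 0.0318), from the authors' deposited table. Both genes also answer to other transcription factors.

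Of 6 tested genes that KLF2 controls in endothelium, 3 were called, all higher in SS (median log2 ratio 0.78). Thbd, which encodes thrombomodulin and is activated by KLF2, had 6.28 FPKM in SS rats and 3.17 in SS.BN1 rats (1.98-fold, q = 0.0304), from the authors' deposited table. The adhesion molecules Vcam1 and Sele, which KLF2 is known to hold down, had 15.8 against 2.62 FPKM and 5.46 against 0.755 FPKM (both q = 0.00266), from the authors' deposited table. The called genes therefore include both kinds of KLF2 target. Of the tested genes not called, Nos3 had 2.10 FPKM in SS rats and 2.05 in SS.BN1 rats, from the authors' deposited table. S1pr1 had 4.96 against 5.97 FPKM and Edn1 2.03 against 1.37 FPKM there.

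Of 9 tested metabolic targets of KLF15, 1 was called, and the median log2 ratio was 0.01. Pck1, which encodes an enzyme of glucose synthesis and is abundant in proximal tubule, had 4.6 FPKM in SS rats and 1.79 in SS.BN1 rats (2.56-fold, q = 0.0140), from the authors' deposited table. That is the opposite of the direction of the Klf15 values. The enzymes of branched-chain amino acid breakdown on the list passed no test.

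**Figure D4:**
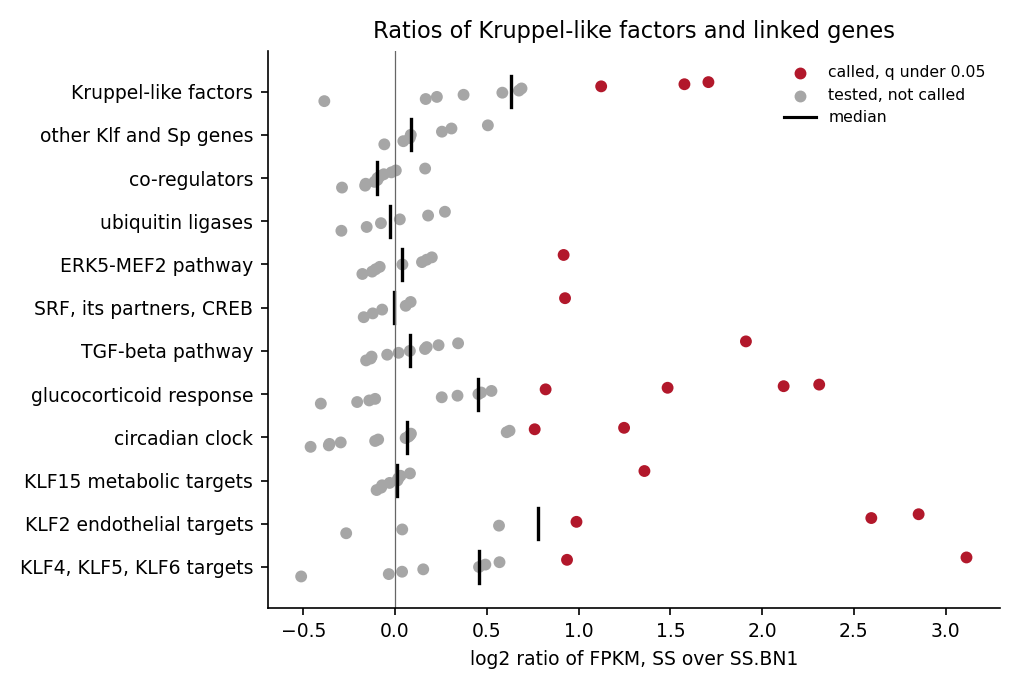
Log2 ratio of FPKM, SS over SS.BN1, for each tested gene of the Kruppel-like factors and of lists of linked genes (red, authors' q under 0.05; grey, not called; black bar, median). All called genes lie to the right of 0, and the Kruppel-like factors have a median of 0.63. Co-regulators and ubiquitin ligases hold no called gene, beside 3.42% of all tested genes called.

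Markers of other cell types moved between the strains as well, and their part in the KLF values was not tested. In these bulk samples fewer cells of a type and less RNA per cell cannot be told apart. The marker counts stand beside 3.42% of all tested genes called, 3.32% higher and 0.0981% lower in SS. Proximal tubule markers had 5 calls among 6 tested, all higher in SS, and the summed level of the 10 listed was 408 FPKM in SS rats and 160 in SS.BN1 rats, from the authors' deposited table. Kap, a kidney androgen-regulated gene, led them with 290.3 against 120.5 FPKM from the authors' deposited table. Slc7a13 had 96.2 against 31.1 FPKM there, and Kap and Slc7a13 made up most of that sum. The listed markers that were not tested stayed under 1 FPKM in both strains. Of these, Slc5a12 had the lower value in SS (0.0328 against 0.0906 FPKM). Endothelial markers, the class in which Klf2 and Klf4 are also expressed, had 1 call among 10 tested, lower in SS. It was Tek, with 6.78 FPKM in SS rats and 11.6 in SS.BN1 rats (q = 0.0221), from the authors' deposited table. The 11 matched endothelial markers summed to 128 FPKM in SS rats and 180 in SS.BN1 rats. Plvap, a protein of endothelial pores and the most abundant of them, had 31.96 FPKM in SS rats and 51.8 in SS.BN1 rats (q = 0.0686), from the authors' deposited table.

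Immune cell markers had 1 call among 10 tested, higher in SS. It was Cd14, with 7.46 FPKM in SS rats and 2.63 in SS.BN1 rats (q = 0.0221), from the authors' deposited table. The listed immune markers summed to 499 FPKM in SS rats and 514 in SS.BN1 rats there. Cd74 was the most abundant (358 against 349 FPKM) and made up most of that sum. Of the 10 tested immune markers, 7 were at a lower value in SS, with a median log2 ratio of -0.31 over the 10. Endothelial markers had a median log2 ratio of -0.29, with 8 of 10 lower in SS. Fibroblast and smooth muscle markers had no call among 4 tested (1 with an unadjusted p under 0.05) and summed to 14.2 FPKM in each strain. The most abundant of them, Dcn, which encodes the matrix proteoglycan decorin, had 6.25 FPKM in SS rats and 6.06 in SS.BN1 rats, from the authors' deposited table. Collecting duct principal cell markers had 1 call among 5 tested, lower in SS (Aqp2, 48.1 against 78.3 FPKM), and summed to 144 FPKM in SS rats and 196 in SS.BN1 rats, from the authors' deposited table. No marker matched in these lists was at 0 in both strains.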

How the data were processed

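Total RNA of individual rats was made into stranded libraries and sequenced in pairs, per the labels' protocols. Per the submitters' processing notes, the tools were Cufflinks 2.2.1, TopHat2 2.1.1, StringTie, FastQC and cutadapt, without their roles, and rn5 is the build named there. FPKM values, 1 per strain and gene or isoform, were made by the authors. How 6 libraries became 1 value, and whether the p-values take in the spread between animals, was not given in the sources used here. Those p-values and q-values were deposited by the authors, and Benjamini-Hochberg adjustment over the 13253 tested genes gave their q to within 5.27e-07. The smallest p in the authors' deposited table, 5e-05, is shared by 249 genes. Read counts and the percent of reads mapped per library are as deposited, per the file headers.

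The build is not settled, since 6832 gene rows carry names of contigs of a later assembly (AABR07). Row starts are 0-based (26 of 31 mitochondrial rows start at the end of another), so 1 was added. Ratios are of the authors' FPKM as they stand, without a pseudocount. List genes were matched by symbol, else by a synonym in RefSeq genes of assembly GRCr8, with the most abundant tested row taken; genes without a match were not analysed here, and 1 listed gene is not reported here. All 10 members had a RefSeq entry.

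The members and lists were chosen with earlier results of these data known. Named were all members, every tested Klf or Sp gene, up to 4 called genes per list by smallest q (with none called, the most abundant), and the most abundant marker per cell type. Some further list genes and markers were named after their values were seen. Reads and mapped shares were compared by an exact permutation test (924 assignments), whose smallest p is 0.00216. The code was tested on simulated data. Alternatives were mean FPKM minimums of 1 and 5, q under 0.01, a fold of at least 1.5, joined rows left out, pseudocounts of 1 and 0.1, quantile normalization, median centring and summed isoforms. Software was Python 3.11.15 with SciPy 1.17.1, NumPy 2.4.6, matplotlib 3.10.9 and pandas 2.3.3.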

Additional observations from a re-analysis of the deposited data

How the results depend on the processing

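Klf6, Klf4 and Klf10 were the 3 members called under each alternative run (mean FPKM of at least 1 or 5, q under 0.01, a fold of at least 1.5, joined rows left out), and 4 isoforms were called under each of 3 alternatives. The q and fold limits could not remove these members, which had q = 0.00266 and folds of 2.18 or more. Nor could they remove the isoforms, with q = 0.00718 and folds of 2.15 or more. The other alternatives for genes re-adjusted the same p-values over fewer genes. Of the members not called, Klf9 came nearest, with q = 0.0892 among genes with a mean of at least 5 FPKM. The members' median log2 ratio ranged from 0.55 (pseudocount of 1, and quantile normalization) to 0.63. Of 50 alternative values of single members, 50 kept the reported sign and 2 moved by over 0.1: Klf5 to 0.53 with a pseudocount of 1 and Klf6 to 1.59 with quantile normalization. A pseudocount added to both strains cannot change a sign. Summed isoforms equalled the gene values, and median centring shifted each ratio by only 0.00113. Of these alternatives only quantile normalization could have changed a sign. Calls in the lists of linked genes numbered 10 with q under 0.01 and 11 at a mean of at least 5 FPKM, against 15. Mean reads were 0.769 M higher in SS, while median reads differed by -0.732 M (exact permutation p = 0.727). No paired analysis was possible because the tables hold 1 FPKM value per strain; for the same reason no animal could be left out.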

Other observations

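Isoforms of the members that the authors did not test, 12 in all, reached at most 1.31 FPKM in either strain. Among them the annotated isoform of Klf13 had 0.0819 FPKM in SS rats and 0.379 in SS.BN1 rats from the authors' deposited table, while the assembled isoforms of Klf13 had 12.03 against 9.22 FPKM and 6.12 against 4.47 FPKM there. The annotated isoform thus made up 0.449% of the gene in SS and 2.69% in SS.BN1, with no test. It was picked after its values were seen.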
